A study of Mus musculus with 9 samples.

Results

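The Na,K-ATPase, or sodium pump, was examined here through 6 genes: Atp1b1, Atp1b2 and Atp1b3, which encode beta subunits, and Fxyd1, Fxyd5 and Fxyd6, which encode small regulators of the FXYD family. They were chosen by name and are 6 of the 38293 genes in the count table. All 6 were among the 15318 genes that passed the filter on low counts. RNA sequencing was performed on whole ventricles of mice at postnatal day 7 (P7), from 5 Arid1a f/f control animals and 4 aMHC-Cre;Arid1a f/f cKO animals (Arid1a cKO). Arid1a encodes a DNA-contacting part of the chromatin remodeller SWI/SNF, and the comparison asked how its loss from heart muscle cells changed gene expression. Both groups carried floxed Arid1a on both chromosomes, and the control animals were littermates without Cre. The study's methods describe the lines as kept on a C57B/6 J background and state that pups of both sexes were used. The aMHC promoter drives Cre in cardiomyocytes, so fibroblasts, endothelium and the other cells of the ventricle kept an undeleted gene, and their RNA was in every library. Nothing in the labels describes pooling, and each library was taken as 1 sample.

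The sodium pump moves sodium out of the cell and potassium in, at the cost of ATP, and so keeps the gradients on which the cardiac action potential and sodium-coupled transport depend. Each pump pairs a catalytic alpha subunit with a beta subunit, a glycoprotein that crosses the membrane and is needed for the pump to fold and reach the cell surface. An optional further partner is an FXYD protein, which tunes the affinity or rate of the pump. In cardiomyocytes this partner is mainly phospholemman, the product of Fxyd1, which holds the pump back until it is phosphorylated by protein kinases A or C.

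The 3 FXYD genes are grouped by a short stretch that gives the family its name, and it is shown here because it is what these genes share. Each line is a 45-base stretch of coding sequence, 5′ to 3′, read from GENCODE transcripts of the mouse build GRCm38, with the 4 codons of the Phe-X-Tyr-Asp motif in capitals. The genomic spans include an intron, since every stretch crosses an exon junction. The Fxyd1 stretch joins exons 3 and 4 at chr7:31053455-31053917 on the minus strand, the Fxyd5 stretch joins exons 7 and 8 at chr7:31035264-31035410 on the minus strand, and the Fxyd6 stretch joins exons 3 and 4 at chr9:45390648-45390796 on the plus strand.
Fxyd1: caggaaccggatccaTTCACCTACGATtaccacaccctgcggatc
Fxyd5: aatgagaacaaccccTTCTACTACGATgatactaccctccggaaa
Fxyd6: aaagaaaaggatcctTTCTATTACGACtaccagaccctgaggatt

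The coding sequences of Fxyd1 and Fxyd6 had 92 and 94 codons, and that of Fxyd5 had 178, because its motif follows a long first part of the protein. In global alignments of the whole coding sequences, Fxyd1 and Fxyd6 had identical bases in 173 of 297 columns, or 58.2%. Fxyd1 and Fxyd5 had them in 201 of 537 columns (37.4%), and Fxyd5 and Fxyd6 in 193 of 538 (35.9%). Gaps count as columns, so the extra length of Fxyd5 lowers its values, and these percentages do not rank the likeness of the aligned bases. The coding sequences of Atp1b1, Atp1b2 and Atp1b3 were closer in length, at 304, 290 and 278 codons. On the same measure identity was 55.0% between Atp1b1 and Atp1b2, 51.3% between Atp1b1 and Atp1b3 and 56.0% between Atp1b2 and Atp1b3. The most alike stretch lies early in the coding sequence, across the junction of exons 1 and 2, and is given to show how close these 3 transcripts come to each other. Capitals mark the 28 of 45 bases that all 3 share. The stretches lie at chr1:164453580-164457767, chr11:69603516-69605267 and chr9:96345856-96364052, all on the minus strand.
Atp1b1: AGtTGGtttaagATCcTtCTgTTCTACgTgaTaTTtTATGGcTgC
Atp1b2: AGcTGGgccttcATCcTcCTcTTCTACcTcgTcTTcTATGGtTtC
Atp1b3: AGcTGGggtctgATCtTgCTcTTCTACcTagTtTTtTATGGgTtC

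Libraries held between 31011055 and 40073801 counts, with 19418 to 20317 genes at 1 count or more. Levels are given as CPM, counts per 1e+06 after scaling of the library totals by TMM. Arid1a itself fell from 139.8 ± 8.84 (SD, n = 5) to 106.4 ± 5.44 CPM (SD, n = 4), with no overlap (log2 fold change -0.39, SE 0.06, edgeR adjusted p = 0.00132). It missed the threshold in 1 of 19 alternatives, the libraries low in Rps3a3 alone (-0.33, edgeR adjusted p = 0.0822), a set described next. The libraries also fell into a pair of sets that the labels do not name, set apart by the ribosomal protein gene copy Rps3a3. Control replicates 1 and 2, with cKO replicates 1, 2 and 3, held 0.345 to 0.521 CPM of it, and control replicates 3, 4 and 5, with cKO replicate 4, held 99.7 to 112.3 CPM. Differences within each set are therefore given for the 6 genes, the ratios that passed and the listed genes of sodium transport and pump regulation that passed, though the set with high Rps3a3 holds 1 cKO library only.

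Of the 6 genes, only Atp1b2 passed an adjusted p of 0.05 in the edgeR quasi-likelihood test, and it also passed the fold threshold of 1.5; it was lower in Arid1a cKO. By the same rule 6.72% of the 15318 genes tested were called, 2.72% as lower and 4.01% as higher, and 16.3% passed on adjusted p alone. In 2 of the 6 genes, Atp1b2 (lower) and Fxyd5 (higher), control and cKO libraries did not overlap, against 16.7% of all genes tested (8.58% lower, 8.16% higher). The median log2 fold change of the 6 genes was -0.04, beside 0.01 over all genes tested. Before adjustment 1 of the 6 was under 0.05 as higher (Fxyd5) and 1 as lower (Atp1b2), and in DESeq2 0 passed as higher and 1 as lower.

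**Figure D1:**
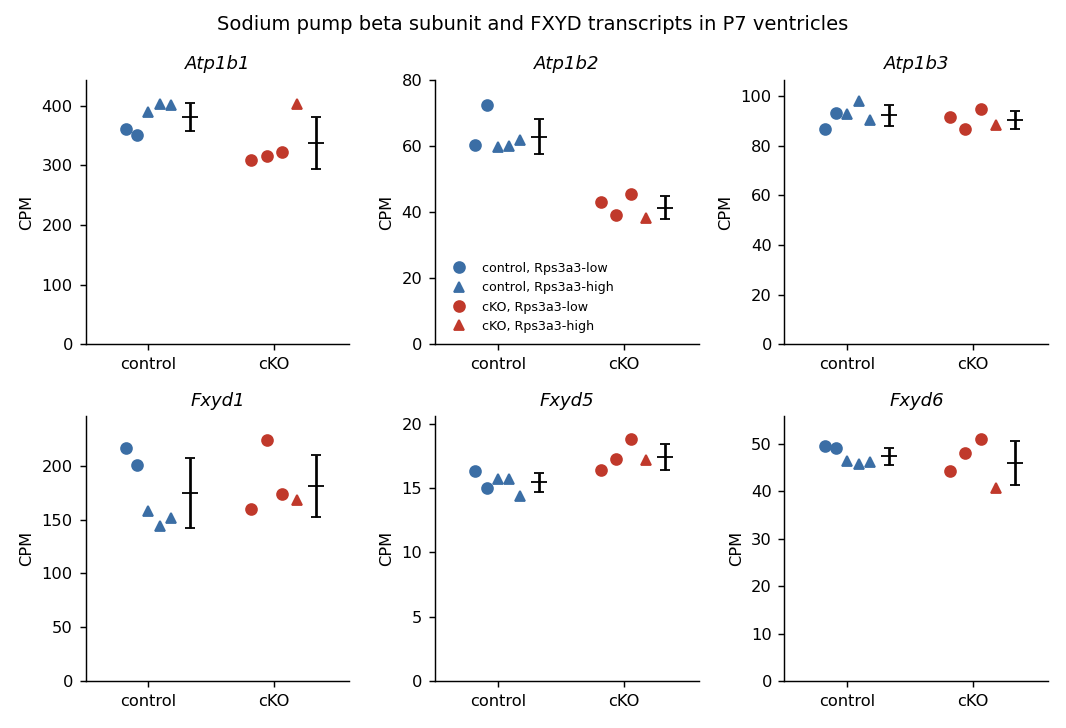
Level of each of the 6 transcripts in CPM (vertical axis, from 0) in the 5 control and 4 cKO libraries, with circles for libraries low in Rps3a3, triangles for libraries high in it, and bars for the group mean ± SD. Atp1b2 lies at 59.86 CPM or more in every control and at 45.36 CPM or less in every cKO library, while the groups overlap in Atp1b1, Atp1b3, Fxyd1 and Fxyd6.

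Atp1b2 (ENSMUSG00000041329, GRCm38 chromosome 11, 69599736 to 69605942, minus strand) encodes the beta2 subunit, first known from glia, where it also serves in cell adhesion. Control replicates 1 to 5 stood at 60.24, 72.47, 59.86, 60.08 and 61.92 CPM, and cKO replicates 1 to 4 at 42.99, 39.05, 45.36 and 38.25 CPM; values of the other genes follow the same order. All 4 cKO libraries lay below all 5 controls, and control replicate 2 stood above the other controls. The means were 62.91 ± 5.40 CPM (SD, n = 5) and 41.41 ± 3.35 CPM (SD, n = 4), so the level fell by 34.2%. The log2 fold change was -0.60 (SE 0.08, 95% interval -0.78 to -0.43, edgeR adjusted p = 0.000382).

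The difference in Atp1b2 was of like size in both sets of libraries, -0.63 on the log2 scale among those low in Rps3a3 and -0.66 among those high in it. It was -0.65 among the 4 libraries with high Xist, which is transcribed in females, and -0.56 among the 5 with low Xist. Interaction terms for the library set and for Xist gave edgeR adjusted p-values of 0.992 and 0.999 for this gene. It kept its direction and an adjusted p under 0.05 in all 19 alternative fits, with log2 fold changes from -0.65 to -0.55. The fold was under 1.5 in 3 of them, those without control replicate 2 (-0.55), cKO replicate 2 (-0.58) or cKO replicate 4 (-0.57), so that there it was not called. No annotated exon of another gene overlaps those of Atp1b2.

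In bulk ventricle, fewer cells of a type and less RNA per cell cannot be told apart. Of 8 markers of cardiomyocytes 1 passed, Myl2, as lower (-0.43), beside 8.03% of all genes tested, and the other 7 had log2 fold changes from -0.31 to 0.22. Before adjustment 3 of the 8 were under 0.05 as lower and 1 as higher, and in DESeq2 2 passed as lower and 0 as higher. Their summed level, to which a few abundant genes contribute most, ran from 52500 to 60560 CPM in controls and from 47050 to 51590 CPM in cKO. Of 7 markers of fibroblasts 3 were higher (Col1a1, Col1a2 and Tcf21), beside 8.25% of all genes tested, and sums of 5587 to 6902 CPM against 6762 to 8020 CPM. The part of these cell types in the fall of Atp1b2 was not tested. Among markers of Schwann cells, Erbb3 was higher in cKO (log2 fold change 0.30, edgeR adjusted p = 0.0116). Sox10, which defines these glia, was near 0, at 0.371 to 1.51 CPM over the 9 libraries.

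Atp1b1 (ENSMUSG00000026576, chromosome 1, 164437109 to 164458355, minus strand) encodes beta1, the main beta subunit of the heart. Its levels were 361.0, 350.8, 389.2, 403.6 and 402.1 CPM in the controls and 309.3, 316.2, 322.0 and 402.6 CPM in the cKO libraries. Only cKO replicate 4 reached into the range of the controls, and the other cKO libraries lay below all of them. The means were 381.3 ± 24.2 CPM (SD, n = 5) and 337.5 ± 43.7 CPM (SD, n = 4). The log2 fold change was -0.18 (SE 0.08, 95% interval -0.36 to 0.01), which did not pass the test (edgeR adjusted p = 0.189). Without cKO replicate 4 it was -0.27 with an edgeR adjusted p of 0.0243, the only 1 of the 19 alternatives in which Atp1b1 passed.

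That library is also the only cKO library of the set with high Rps3a3. Within that set the difference in Atp1b1 was 0.02 on the log2 scale, and within the low set it was -0.17. The controls of the high set, at 389.2 to 403.6 CPM, also lay above those of the low set, at 350.8 and 361.0 CPM. The interaction with the library set was 0.19 and did not pass (edgeR adjusted p = 0.947). The last 575 exon bases of Atp1b1 lie opposite exons of Nme7 on the other strand; Nme7 averaged 3.46 ± 0.528 (SD, n = 5) and 3.13 ± 0.302 CPM (SD, n = 4), small beside Atp1b1.

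Atp1b3 (ENSMUSG00000032412, chromosome 9, 96332655 to 96364442, minus strand) encodes beta3, a widely expressed beta subunit. It stood at 86.66, 93.15, 92.80, 98.18 and 90.57 CPM in controls and at 91.79, 86.69, 94.70 and 88.25 CPM in cKO. All cKO libraries lay within the range of the controls, with means of 92.27 ± 4.19 CPM (SD, n = 5) in controls and 90.36 ± 3.60 CPM (SD, n = 4) in cKO. The log2 fold change was -0.03 with a 95% interval of -0.16 to 0.09 (edgeR adjusted p = 0.766). This interval does not reach the change measured for Atp1b2, though a 95% interval from 9 libraries sets no firm limit on a difference in Atp1b3. Within the low set the difference was 0.02 and within the high set -0.09, on the log2 scale.

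Because a ratio of 2 transcripts within a library does not depend on the scaling, it shows directly whether they changed by unequal amounts. The log2 ratio of Atp1b2 to Atp1b3 was -0.52, -0.36, -0.63, -0.71 and -0.55 in controls and -1.09, -1.15, -1.06 and -1.21 in cKO. No cKO library overlapped the controls, and the difference of -0.57 had an exact permutation p of 0.007937 (two-sided, adjusted p over 6 ratios = 0.01587), the smallest that 9 libraries can give. The log2 ratio of Atp1b1 to Atp1b2 rose from 2.60 ± 0.19 (SD, n = 5) to 3.02 ± 0.26 (SD, n = 4), again with no overlap (difference 0.42, exact permutation p = 0.007937, adjusted p = 0.01587). Atp1b2 thus fell relative to both other beta subunits in the same libraries. The log2 ratio of Atp1b1 to Atp1b3 was 2.05 ± 0.09 (SD, n = 5) and 1.89 ± 0.20 (SD, n = 4), a difference of -0.15 that did not pass (exact permutation p = 0.1587, adjusted p = 0.238) and was -0.19 in the low set and 0.10 in the high set.

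Both ratios with Atp1b2 moved the same way within each library set. For Atp1b2 to Atp1b3 the differences were -0.66 in the low set and -0.58 in the high set, and for Atp1b1 to Atp1b2 they were 0.47 and 0.68. With labels permuted only within the sets, which allows 40 splits, each had an exact permutation p of 0.025, the smallest possible there, and an adjusted p of 0.05. For the Atp1b1 to Atp1b2 ratio, leaving out cKO replicate 4 gave a difference of 0.30 with an adjusted p of 0.0804, and for Atp1b2 to Atp1b3 a difference of -0.55 with an adjusted p of 0.0536 (exact permutation). Leaving out any 1 control gave both an adjusted p of 0.0571 (exact permutation), where the smallest unadjusted p is 0.0286.

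**Figure D2:**
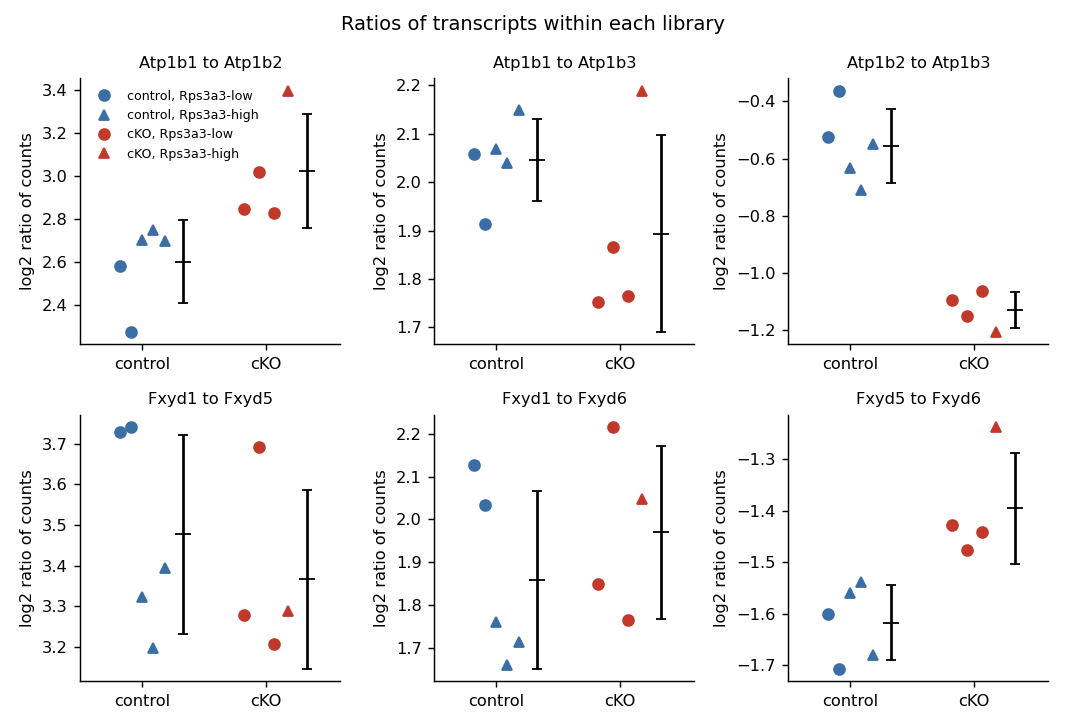
Log2 ratio of the counts of 2 transcripts within each library (vertical axes, each with its own range and not starting at 0), by group, with circles for libraries low in Rps3a3, triangles for libraries high in it, and bars for mean ± SD. The groups are apart for Atp1b1 to Atp1b2, Atp1b2 to Atp1b3 and Fxyd5 to Fxyd6, and overlap in the other 3 ratios.

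To compare genes with each other, levels were divided by the annotated exon length, which gives CPM per kb. This assumes that all annotated exons are used, and between genes it is only as good as that length. On this scale the order among beta subunits was Atp1b1, Atp1b3, Atp1b2 in every one of the 9 libraries. In controls their levels were 123.8 ± 7.82, 38.62 ± 1.76 and 15.40 ± 1.32 CPM per kb (SD, n = 5), and in cKO 109.6 ± 14.2, 37.82 ± 1.5 and 10.14 ± 0.822 CPM per kb (SD, n = 4). Atp1b2, the least abundant beta transcript, held 7.87% to 10.4% of the summed beta level in controls and 5.29% to 7.15% in cKO. Atp1b1 held 69.6% ± 1.68 (SD, n = 5) and 69.4% ± 3.09 (SD, n = 4), and Atp1b3 held 21.8% ± 0.796 (SD, n = 5) and 24.1% ± 2.22 (SD, n = 4). The fall in Atp1b2 thus concerned a minor part of the beta transcripts of the ventricle.

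Among FXYD genes the order was Fxyd1, Fxyd6, Fxyd5, also in all 9 libraries. Fxyd1 made up 83.7% ± 1.99 of their summed level per kb in controls (SD, n = 5) and 84.2% ± 1.84 in cKO (SD, n = 4). Across both families, in controls, Atp1b1 at 113.9 to 131.0 CPM per kb lay above Fxyd1 at 66.05 to 99.20, followed by Atp1b3, Atp1b2, Fxyd6 and Fxyd5 with no overlap between neighbours. In cKO, Fxyd1 at 72.90 to 102.2 CPM per kb reached the lowest values of Atp1b1, which ran from 100.4 to 130.7. Atp1b2 at 9.36 to 11.11 CPM per kb then lay among the values of Fxyd6, at 9.89 to 12.46, and these neighbours did not differ beyond their spread.

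**Figure D3:**
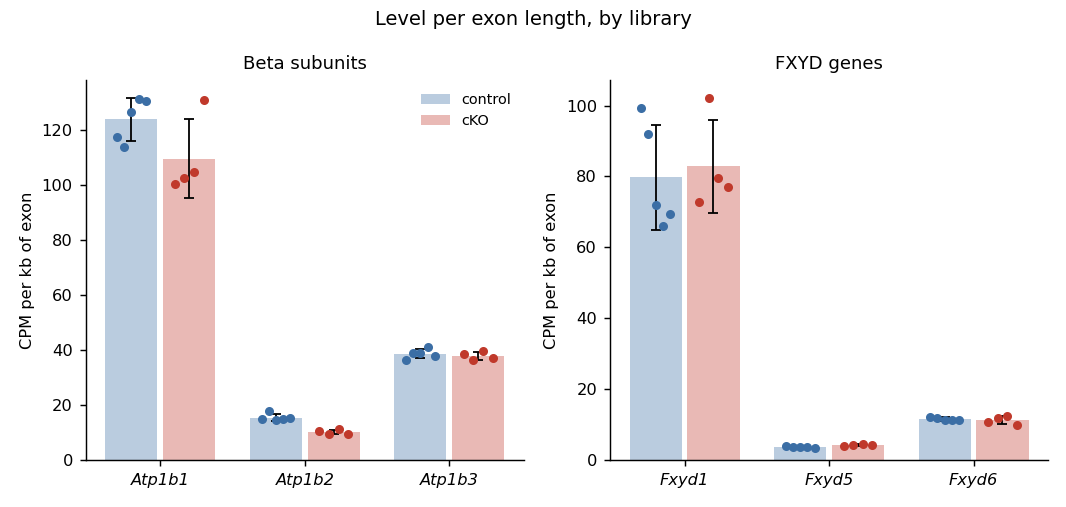
Level per exon length in CPM per kb (vertical axes, from 0) of the beta subunit genes and the FXYD genes, with a point for each library, bars for the group mean and error bars for the SD (control n = 5, cKO n = 4). Atp1b1 and Fxyd1 are the most abundant of their families in both groups, and Atp1b2, at 15.4 and 10.14 CPM per kb, is the least abundant beta transcript.

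Fxyd1 (ENSMUSG00000036570, chromosome 7, 31051678 to 31057199, minus strand), the phospholemman gene, was at 216.9, 201.1, 157.5, 144.4 and 151.8 CPM in controls and at 159.4, 223.5, 174.0 and 168.1 CPM in cKO. The spread within each group was wide and the groups overlapped almost fully. The means were 174.3 ± 32.5 CPM (SD, n = 5) and 181.3 ± 28.8 CPM (SD, n = 4), and the log2 fold change was 0.06 with a 95% interval of -0.25 to 0.36 (edgeR adjusted p = 0.824). Control replicates 1 and 2, of the set low in Rps3a3, were higher than control replicates 3 to 5. The difference was -0.18 on the log2 scale within the low set and 0.15 within the high set, so no direction is given for Fxyd1.

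Fxyd5 (ENSMUSG00000009687, chromosome 7, 31032722 to 31042481, minus strand) encodes dysadherin, an FXYD protein with a long extracellular part that is better known from epithelia. It was the lowest of the 6 genes, at 16.34, 15.03, 15.73, 15.73 and 14.42 CPM in controls and 16.42, 17.28, 18.83 and 17.21 CPM in cKO. Every cKO library lay above every control, but the gap between the groups was only the step from 16.34 to 16.42 CPM. The means were 15.45 ± 0.738 CPM (SD, n = 5) and 17.44 ± 1.01 CPM (SD, n = 4). The log2 fold change of 0.17 (SE 0.08, 95% interval 0.01 to 0.34) had an unadjusted p of 0.0444 and an edgeR adjusted p of 0.156 and did not pass. It was 0.15 in the low set and 0.17 in the high set, and ran from 0.14 to 0.20 over the 19 alternatives, none of which passed (edgeR adjusted p from 0.123 to 0.578). A microRNA gene, Mir7050, lies inside Fxyd5 on the same strand and shares 60 exon bases with it.

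Fxyd6 (ENSMUSG00000066705, chromosome 9, 45370185 to 45396159, plus strand) encodes phosphohippolin, a regulator best known from the brain. It stood at 49.59, 49.12, 46.45, 45.71 and 46.24 CPM in controls and at 44.20, 48.12, 51.16 and 40.62 CPM in cKO. The cKO libraries spread to both sides of the controls. The means were 47.42 ± 1.79 CPM (SD, n = 5) and 46.03 ± 4.59 CPM (SD, n = 4), with a log2 fold change of -0.04 and a 95% interval of -0.21 to 0.12 (edgeR adjusted p = 0.743). It was -0.05 within the low set and -0.18 within the high set.

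Among the ratios of FXYD genes, Fxyd5 to Fxyd6 was -1.62 ± 0.07 (log2, SD, n = 5) in controls and -1.40 ± 0.11 (SD, n = 4) in cKO, with no overlap. The difference of 0.22 had an exact permutation p of 0.007937 (adjusted p over 6 ratios = 0.01587). It was 0.21 within the low set and 0.35 within the high set, with an adjusted p of 0.05 when labels were permuted within the sets (exact permutation), which does not pass. Neither gene passed alone, so the ratio gives no direction for either of them. Without cKO replicate 4 it was 0.17 with an adjusted p of 0.0714, and without any 1 control the adjusted p was 0.0571 (exact permutation). The ratios of Fxyd1 to Fxyd5 (-0.11, exact permutation p = 0.468) and of Fxyd1 to Fxyd6 (0.11, exact permutation p = 0.429) did not pass.

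Fxyd5 and Fxyd1 are near neighbours on chromosome 7, on the same strand, with Fxyd7 between them at 31042513 to 31051467 and Fxyd3 beyond Fxyd1 at 31068172 to 31076704. The log2 fold changes of Fxyd5, Fxyd7 and Fxyd1, in their order along the chromosome, were 0.17, -0.70 and 0.06, and none of the 3 passed. Fxyd7, a regulator known from neurons, averaged 1.62 ± 0.305 CPM over the controls (SD, n = 5) and 0.990 ± 0.273 over the cKO libraries (SD, n = 4), without overlap, and did not pass (SE 0.24, edgeR adjusted p = 0.0734). Fxyd6 and Fxyd2 lie side by side on chromosome 9, on the plus strand. Fxyd2, the gamma subunit of the kidney pump, was at 0.391 ± 0.0515 CPM (SD, n = 5) and 0.460 ± 0.108 CPM (SD, n = 4), far below Fxyd6. Fxyd7, Fxyd2 and Nkain1 are named here after their values were seen.

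Of 10 other genes of these families, among them genes of the Nkain family, whose products bind beta subunits, 5 were tested, 1 passed as higher and 0 as lower. Fxyd7 and Nkain1 (log2 fold change 0.42) were also under 0.05 before adjustment, with edgeR p-values of 0.0142 and 0.0379, and in the DESeq2 fit Fxyd7 passed as lower (adjusted p = 0.0453). Over all genes tested, 8.25% passed as higher and 8.03% as lower. The gene that passed was Atp1b4, whose product has left the pump in placental mammals and sits in the nuclear envelope of striated muscle. It had only 4, 5, 11, 3 and 2 counts in controls and 5, 26, 17 and 25 counts in cKO, so that cKO replicate 1 lay among the controls. Only control replicate 3 and cKO replicates 2, 3 and 4 held 10 counts or more. The filter on low counts (minimum count 10) thus took Atp1b4 in mostly through the group in which it was higher. Its pass is a weak result for that reason too. The level of Atp1b4 was 0.146 ± 0.0937 CPM (SD, n = 5) and 0.486 ± 0.234 CPM (SD, n = 4), with a log2 fold change of 1.70 (SE 0.49, edgeR adjusted p = 0.0354).

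Atp1b4 kept an adjusted p under 0.05 in 8 of the 17 alternatives that could be fitted to it. Among libraries left out in turn it was below the filter without control replicate 3, and it did not pass without control replicate 1, 2, 4 or 5 or cKO replicate 2, 3 or 4 (edgeR adjusted p from 0.0626 to 0.108). Fxyd4 and Nkain2 had 0 counts in all 9 libraries, which allows a level of up to 0.0726 to 0.0970 CPM per library (3 counts, counting error only). Atp4b, Fxyd3 and Nkain3 had too few counts to be tested.

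The genes around the pump were taken from a list of 18, all of them tested: sodium-coupled transporters, the kinases, phosphatases and inhibitor that act on phospholemman, and membrane anchors. Of these, 2 were higher and 3 were lower in Arid1a cKO, with a median log2 fold change of -0.10 beside 0.01 over all genes. These 5 of 18 stand beside the 16.3% of all genes tested that passed.

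Prkaca, a catalytic subunit of protein kinase A, which phosphorylates phospholemman, fell from 374.0 ± 25.7 (SD, n = 5) to 298.0 ± 14.7 CPM (SD, n = 4). Its log2 fold change was -0.33 (SE 0.07, edgeR adjusted p = 0.00493), and it passed in 19 of 19 alternatives. Prkce, the epsilon isoform of protein kinase C, fell from 50.07 ± 3.52 (SD, n = 5) to 35.60 ± 2.33 CPM (SD, n = 4). Its log2 fold change was -0.49 (SE 0.07, edgeR adjusted p = 0.000795), and it missed the threshold in 1 alternative, the set low in Rps3a3 alone (-0.40, edgeR adjusted p = 0.0640). Neither kinase reached a fold of 1.5, and in neither did the groups overlap. The other 4 genes of these kinase families on the list did not pass. Among them Prkacb and Prkar1a are named here after their values were seen. Prkacb, which also encodes a catalytic subunit of protein kinase A, averaged 132.7 ± 9.79 CPM (SD, n = 5) and 123 ± 8.47 CPM (SD, n = 4). Its log2 fold change was -0.11 (edgeR adjusted p = 0.333). Prkar1a, a regulatory subunit of the same kinase, had a log2 fold change of 0.19 (edgeR adjusted p = 0.0695). It passed in 4 of 19 alternatives, including the DESeq2 fit (adjusted p = 0.0426) and, in edgeR, the one that held the library set as a covariate (adjusted p = 0.0198).

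Ank2, which encodes ankyrin-B, an anchor of the pump and of the sodium-calcium exchanger, fell from 157.6 ± 7.20 (SD, n = 5) to 132.3 ± 11.5 CPM (SD, n = 4), with no overlap. Its log2 fold change was -0.25 (SE 0.07, edgeR adjusted p = 0.0229). It passed in 13 of 19 alternatives. It did not pass without control replicate 2 or 4 or without cKO replicate 2 or 4 (edgeR adjusted p from 0.0517 to 0.0713), with the replicate block (0.0622) or in the set low in Rps3a3 alone (0.177). Slc8a1, the sodium-calcium exchanger itself, was at 160.2 ± 32.4 CPM (SD, n = 5) and 135.0 ± 24.8 CPM (SD, n = 4). At a log2 fold change of -0.25 (SE 0.16, 95% interval -0.60 to 0.10) it did not pass (edgeR adjusted p = 0.333).

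Slc4a4, a sodium-bicarbonate cotransporter, was the only gene of the list past the fold threshold as well. It rose from 45.25 ± 6.92 (SD, n = 5) to 72.06 ± 7.99 CPM (SD, n = 4), with no overlap. Its log2 fold change was 0.67 (SE 0.11, edgeR adjusted p = 0.00192), and it passed in 19 of 19 alternatives. Src, a kinase that forms a signalling complex with the pump, rose from 10.29 ± 1.40 (SD, n = 5) to 13.26 ± 0.772 CPM (SD, n = 4), with a log2 fold change of 0.37 (SE 0.11, edgeR adjusted p = 0.0422). It passed in 7 of 19 alternatives, and of the fits with 1 library left out only those without control replicate 1 or cKO replicate 1 kept it (edgeR adjusted p in the other 7 from 0.0515 to 0.108). On the log2 scale, the differences within the low and the high set were -0.42 and -0.26 for Prkaca, -0.39 and -0.56 for Prkce, -0.27 and -0.29 for Ank2, 0.86 and 0.68 for Slc4a4 and 0.20 and 0.51 for Src. Ppp1r1a, an inhibitor of protein phosphatase 1 named here after its values were seen, had a log2 fold change of -0.57 (edgeR adjusted p = 0.106) and passed in 3 of 19 alternatives.

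**Figure D4:**
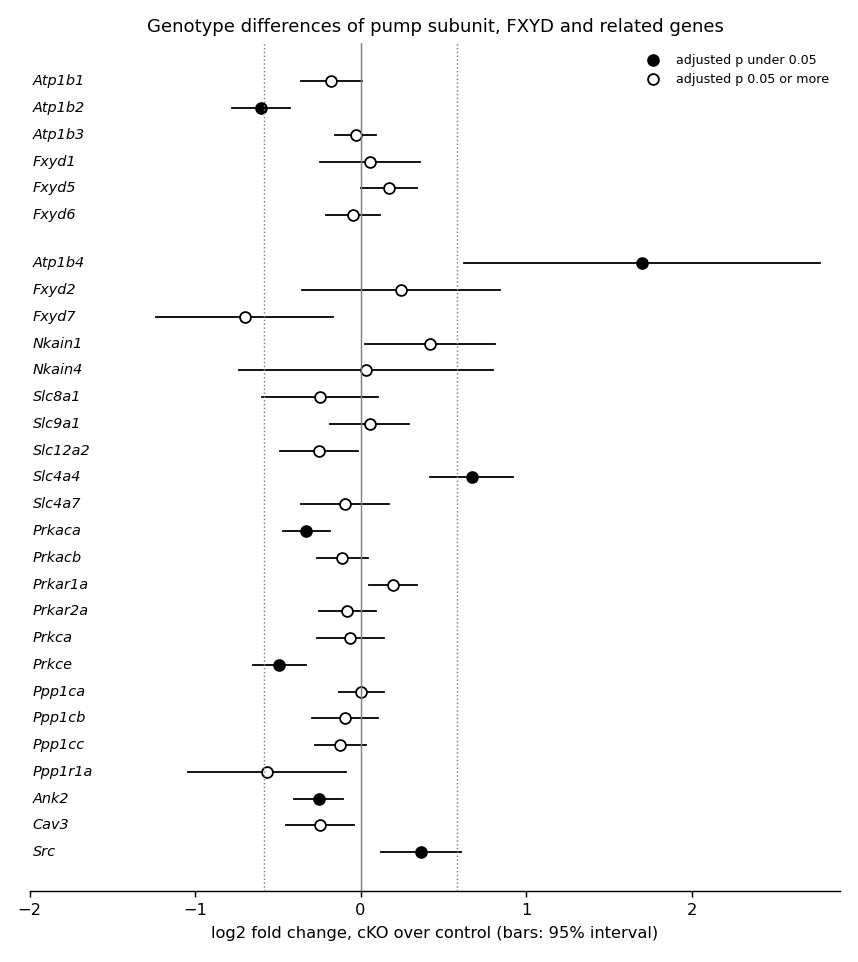
Log2 fold change of cKO over control (horizontal axis) with its 95% interval from the edgeR fit for the 6 genes (top), the 5 tested genes of the same families and the 18 genes of sodium transport and pump regulation, where filled points mark an edgeR adjusted p under 0.05 and dotted lines a fold of 1.5. Atp1b2 is the only filled point of the top group, at -0.60, and Slc4a4, Prkaca, Prkce, Ank2, Src and Atp1b4 are filled below it.

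Markers of further cell types were read beside these genes. By edgeR 0 of 7 mural cell markers and 0 of 7 leukocyte markers passed in either direction; before adjustment 2 mural genes were under 0.05 as higher, 1 mural gene as lower and 1 leukocyte gene as higher, and in DESeq2 0 mural genes and 1 leukocyte gene passed. For the leukocyte genes the median log2 fold change was 0.45, with sums of 86.14 to 147.8 CPM in controls and 109.1 to 205.1 CPM in cKO. Over all genes tested 8.03% passed as lower and 8.25% as higher. Endothelial markers had 1 of 7 lower, Tek, with overlapping sums of 1556 to 1678 CPM and 1501 to 1636 CPM. Of the other lists, neuron had 1 of 2 tested genes higher (Dbh) with Chrna3 at 0 in all libraries, epicardium had 1 of 5 lower (Wt1), and of 6 erythroid and 4 tested skeletal muscle genes 0 passed in edgeR. Before adjustment 2 erythroid genes were under 0.05 as higher, 3 skeletal muscle genes as higher and 1 as lower, and in DESeq2 1 gene of each list passed as higher. Their part in the values above was not tested. The cardiomyocyte genes were the most abundant of all lists in every library.

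The genes whose levels followed each transcript most closely were found by Pearson correlation of log2 CPM over the 9 libraries, as a description in which all points share the same libraries and scaling. For Atp1b2 they were Slc44a2 (r = 0.99), Foxo6os (r = 0.99) and Ampd3 (r = 0.99), which encode a choline transporter-like protein, a long noncoding RNA and an AMP deaminase. All 3 were lower in cKO, by log2 fold changes of -0.53, -2.33 and -0.88, and once the group means were taken out the correlations were 0.92, 0.89 and 0.88. For Atp1b1 they were Sept6, Azin1 and Ppp1cc (r = 0.98, 0.95 and 0.94), and for Atp1b3 Uvssa, Rab9 and Mkks (r = 0.95, 0.93 and 0.93).

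For Fxyd1 the closest genes were Atp5g2, Ubxn6 and Taldo1 (r = 0.99 for each), whose log2 fold changes were 0.05, 0.04 and 0.06. Fxyd5 lay closest to Lmod3, Elp5 and Donson (r = 0.95, 0.94 and 0.93), and Fxyd6 to Esam, an endothelial adhesion molecule, Cx3cl1 and Mgl2 (r = 0.93, 0.92 and 0.91). None of these lists contained another of the 6 genes, which the rule left out. Among the 6 themselves, deviations from the group means were correlated most between Atp1b1 and Fxyd6 (r = -0.76), Atp1b3 and Fxyd1 (r = -0.65) and Atp1b1 and Atp1b2 (r = -0.60). These are 9 points each and are given without a test.

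**Figure D5:**
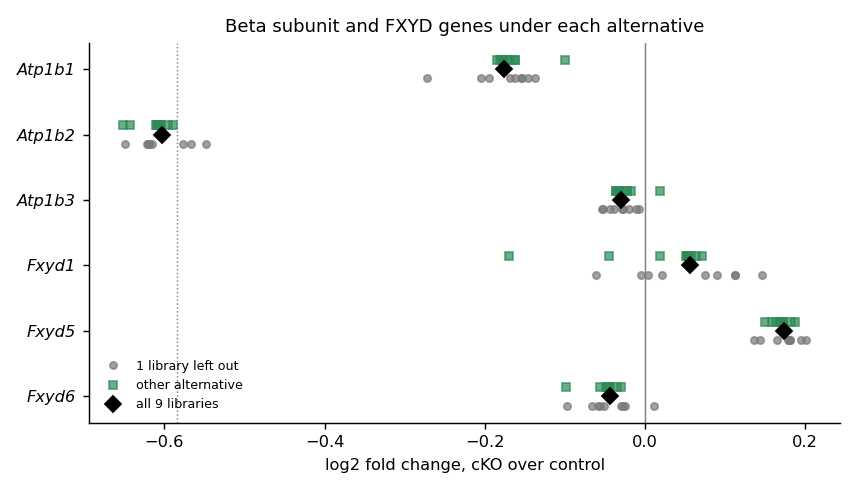
Log2 fold change of cKO over control (horizontal axis) for each of the 6 genes with all 9 libraries (diamonds), with 1 library left out (circles) and under the other alternative fits (squares), with a dotted line at a fold of 1.5 lower. Atp1b2 keeps between -0.65 and -0.55 throughout, Fxyd5 stays between 0.14 and 0.20, and the values of Atp1b3, Fxyd1 and Fxyd6 fall on both sides of 0.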

How the data were processed

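Total RNA of P7 ventricles was made into stranded mRNA libraries and sequenced as single-end 75-base reads, and the authors deposited raw counts per gene and library. The submitters' processing notes name STAR 2.4.2a, HTSeq 0.6.1 and mm10; the gene annotation, and how strand was treated in counting, are not given in the sources used here. Reads of overlapping genes or close copies may therefore be misassigned. No normalization had been applied to the deposited counts. The study's methods count 4 controls and a legend of it 5; the 5 libraries labelled as controls were used. Nothing in the labels says how the animals relate, so p-values measure the spread between these samples.

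Symbols and coordinates came from GENCODE M21 on GRCm38, in which 36429 of 38293 identifiers, with 99.82% of the counts, had a symbol. Coordinates are 1-based. Counts were scaled by TMM, filtered by filterByExpr (minimum count 10) and fitted with the edgeR 4.0.16 quasi-likelihood F test in R 4.3.3, with genotype alone. p-values are two-sided and adjusted by Benjamini-Hochberg over the 15318 genes. A call needed a fold over 1.5 with an adjusted p under 0.05, the thresholds of the study, whose own test was DESeq2. SE is the size of the log2 fold change over the root of its F. Ratios were log2((count + 0.5)/(count + 0.5)) per library, compared by two-sided exact permutation tests. Differences within a library set or Xist level are of mean log2(CPM + 0.5). The fit was tested on simulated counts.

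Alternatives were DESeq2 1.42.0, other scalings and filters, the replicate number as a block, library set (Rps3a3 over 10 CPM) and Xist (over 100 CPM) as terms, the low set alone, and each library left out. The 6 genes and all lists were chosen with earlier results of these data known. The genes named are the 6, the listed genes past an adjusted p of 0.05, Slc8a1, and the 3 closest in pattern to each of the 6 (no Gm, Rik or pseudogene names). Cell type markers, Fxyd7, Fxyd2, Nkain1, Prkacb, Prkar1a and Ppp1r1a are named beside them, all but the markers after their values were seen. The catalytic alpha subunits and 1 Schwann cell marker are not reported here. Sequences were read from GENCODE transcripts; amino acid sequences were not used here. The table held 0 columns of other samples.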

Additional observations from a re-analysis of the deposited data

Results flagged for a closer look

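Of 42 groups of values examined for a library far from the others of its group, 3 stood out by Dixon's 95% limit, which chance passes in about 1 of 20 groups.

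Atp1b1 in cKO replicate 4 was at 402.6 CPM, while the other 3 cKO libraries lay between 309.3 and 322.0 CPM, a gap of 0.864 of the range. It is the only cKO library of the set high in Rps3a3, so that this set and the library cannot be told apart within the cKO group.

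Atp1b2 in control replicate 2 was at 72.47 CPM against 59.86 to 61.92 CPM in the other 4 controls, a gap of 0.837 of the range. Without it the log2 fold change of Atp1b2 was -0.55.

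The log2 ratio of Fxyd1 to Fxyd5 in cKO replicate 2 was 3.69 against 3.21 to 3.29 in the other 3 cKO libraries, a gap of 0.835 of the range.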

How the results depend on the processing

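Atp1b2 was lower with an adjusted p under 0.05 in all 19 alternatives run, at a fold under 1.5 in 3; of the other 5 genes only Atp1b1 passed in any (-0.27 without cKO replicate 4). Calls over all genes were 620 in the set low in Rps3a3 alone and 2493 without the fold threshold, against 1030. Signs turned for genes that passed in no fit: Atp1b3 to 0.0189 in the low set; Fxyd1 to -0.0446 with the library set as a term, -0.17 in the low set, -0.0046 without control replicate 4 and -0.0607 without cKO replicate 2 (-0.0607 to 0.1469 with a library left out); Fxyd6 to 0.0119 without cKO replicate 4 (-0.0977 to 0.0119); and the Fxyd1 to Fxyd6 ratio to -0.14 in the low set. The cause was not tested.

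The 3 ratios that passed kept their direction in all alternatives and an adjusted p under 0.05 without cKO replicate 1, 2 or 3 (0.0357 by exact permutation). They lost it without any 1 control or cKO replicate 4, within the library sets, in the low set and with the block. Within the library sets Atp1b1 to Atp1b2, Atp1b2 to Atp1b3 and Fxyd5 to Fxyd6 were 0.55, -0.63 and 0.26; in the low set alone 0.47, -0.66 and 0.21, with an exact permutation p no lower than 0.1. With 1 library left out they ran from 0.30 to 0.49, from -0.61 to -0.52 and from 0.17 to 0.25. Replicate numbers did not pair the libraries: correlations of same-numbered deviations were 0.02, 0.04, 0.01 and 0.23, and 0 of 4 pairs correlated best with their own number. With the replicate block the ratios were 0.45, -0.57 and 0.21, where an exact test cannot go below 0.125, and calls fell to 888.

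The count of other family genes that passed as higher was 0, not 1, with a filter at 1 CPM, with the block and in the low set, and 0 to 1 with a library left out; as lower it was 1, not 0, in DESeq2. Sodium transport and pump regulation genes higher were 1, not 2, without a filter, with the block, with Xist and in the low set, and 1 to 2 with a library left out, but 3 in DESeq2 and with a filter at 1 CPM; those lower were 5 with the library set as a term and 1 in the low set, not 3. Depth limits the family genes of few counts, with 0.0726 to 0.0970 CPM as the level that 0 counts allow.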
